A study of Mus musculus with 6 samples.

Results

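The genes described here carry the DNA damage checkpoint and the repair of DNA strand breaks. They were 41 symbols chosen by name for their known roles in damage signalling, homologous recombination, the Fanconi anaemia pathway, end joining, mismatch repair and single-strand break repair. Of these symbols, 40 had a row among the 23420 genes of the count table, and the symbol Claspn had none. All 40 passed the filter on low counts and were tested with 13044 genes in all. The rule names symbols and uses no measured value, though it was written with earlier results of these data known.

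RNA sequencing was done on mouse embryonic fibroblasts transformed with the adenoviral oncogene E1A and the activated Ras gene HrasG12V, of a mixed 129/Sv-C57BL/6 background. Each of 3 lines gave 1 library of cells with the guide sgNTC, labelled p53 wild-type, and 1 library of cells with the guide sgp53(1), called sgp53 here. In the labels, p53 is null in sgp53 lines 1 and 3, and present but without function in sgp53 line 2. All cells, controls included, carried both oncogenes and were harvested after 24 h of recovery in 5% oxygen. In their descriptions, the libraries of lines 2 and 3 carry 1 number in common and those of line 1 a different one, whose meaning is not stated. No label says whether the lines came from separate embryos, or whether the edited cells were clones or pools, so p-values measure the spread between these 6 libraries only.

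Breaks in DNA activate the kinase ATM, and stretches of single-stranded DNA at stalled forks activate ATR. These kinases switch on CHK2 and CHK1, which hold the cell cycle and, in the case of ATM and CHK2, also stabilise p53. Breaks are then joined end to end by the Ku and ligase IV machinery, or copied from the sister chromatid by homologous recombination, while the Fanconi proteins open crosslinks and mismatch repair corrects replication errors. Many of these genes are transcribed more in dividing cells than in resting ones.

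The libraries held 27503577 to 35860866 counts. Levels are CPM, the usual counts scaled to normalized library totals. Trp53, the targeted gene, stood at 206 to 277 CPM in sgNTC and at 71.1 to 113 CPM in sgp53, and Cdkn1a, the p53 target that encodes p21, at 647 to 732 and at 73.8 to 101 CPM. The mesenchymal marker Vim was at 2502 to 3354 CPM in all 6 libraries. Col1a1 was at only 5.18 to 12.6 CPM in sgNTC, and at 221 to 744 CPM in sgp53. Of 13 fibroblast markers, all tested, 5 were called higher in sgp53. The 13 summed to 5876 to 6855 CPM in sgNTC and 7525 to 10494.5 CPM in sgp53. In sgp53 line 3, Pdgfra, Thy1, S100a4 and Prrx1 stood at 131, 53.9, 99.4 and 242 CPM. The other sgp53 libraries held 21.1 to 26.2, 3.36 to 4.30, 8.57 to 15.8 and 64.5 to 65.2 CPM. Col5a1 did not stand apart there, at 396 CPM against 381 and 427 CPM. Of 8 epithelial markers, 5 were tested and Krt18 was called lower, their sum was 294 to 689 and 116 to 165 CPM, and Krt5 was at 0. The 5 endothelial markers summed to 1.67 to 2.65 CPM, the 7 blood markers with a row to 3.79 to 10.5 CPM (Cd68 called lower) with Emr1, Cd3e and Hbb-b1 at 0, the 4 muscle markers to 1.11 to 2.22 CPM and the 4 neural markers to 29.9 to 80.4 CPM (Map2 called lower). Rn45s, which encodes precursor ribosomal RNA, stood at 3338 CPM in sgp53 line 3 and at 636 to 864 CPM elsewhere. The part of these marker and Rn45s levels in the results below was not tested. In bulk RNA, fewer cells that express a gene and less RNA per cell cannot be told apart.

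The fitted RNA levels of all 40 checkpoint and repair genes in sgp53 cells lay within 2-fold of those in p53 wild-type cells. Msh6, the mismatch recognition subunit, fell by 0.54 in log2 fold change (log2FC, sgp53 over sgNTC) and was the 1 gene of 40 called lower by edgeR, where 3.69% of all tested genes were called lower. EdgeR called 0 of 40 higher, against 2.76% of all tested genes. At an unadjusted p under 0.05, 1 was higher, against 13.9%. DESeq2 called 0 higher, against 8.91% of the genes tested, and limma-voom 0, against 284 of the 13044 tested genes. A call is an edgeR quasi-likelihood test of sgp53 against sgNTC with an adjusted p under 0.05 (Benjamini-Hochberg over all genes tested). Every fitted log2 fold change of the 40 lay within 0.6 of 0, as did 92.4% of the 9229 tested genes with a mean of at least 11 CPM, a range of levels that all 40 reached. The 95% interval of the fold change stayed within 2-fold either way for 40 of 40 genes and within 1.5-fold for 33. The widest bounds were -0.94 for Chek2 and 0.97 for H2afx. Counts per gene and library ran from 292 to 14573.

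The small differences leaned downwards. By sign, 29 of the 40 log2 fold changes were negative (72.5%), against 51.5% of all tested genes, and the median was -0.12, against -0.01. At an unadjusted p under 0.05, 10 genes (25%) were lower, against 15.1% of all tested genes, and 1 (2.5%) was higher, against 13.9%. In 14 genes (35%) all 3 sgp53 libraries lay below all 3 sgNTC libraries, as in 19.0% of all tested genes, and in 1 gene all lay above, as in 17.8%. With DESeq2, 6 of the 40 were called lower (Msh6, Chek2, Brca2, Rad51c, Xrcc5 and Xrcc1), against 9.04% of the genes tested (0 of 40 higher, against 8.91%). Leaving out both libraries of line 2 moved the median to -0.07, with 25 negative signs and 0 calls.

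**Figure D1:**
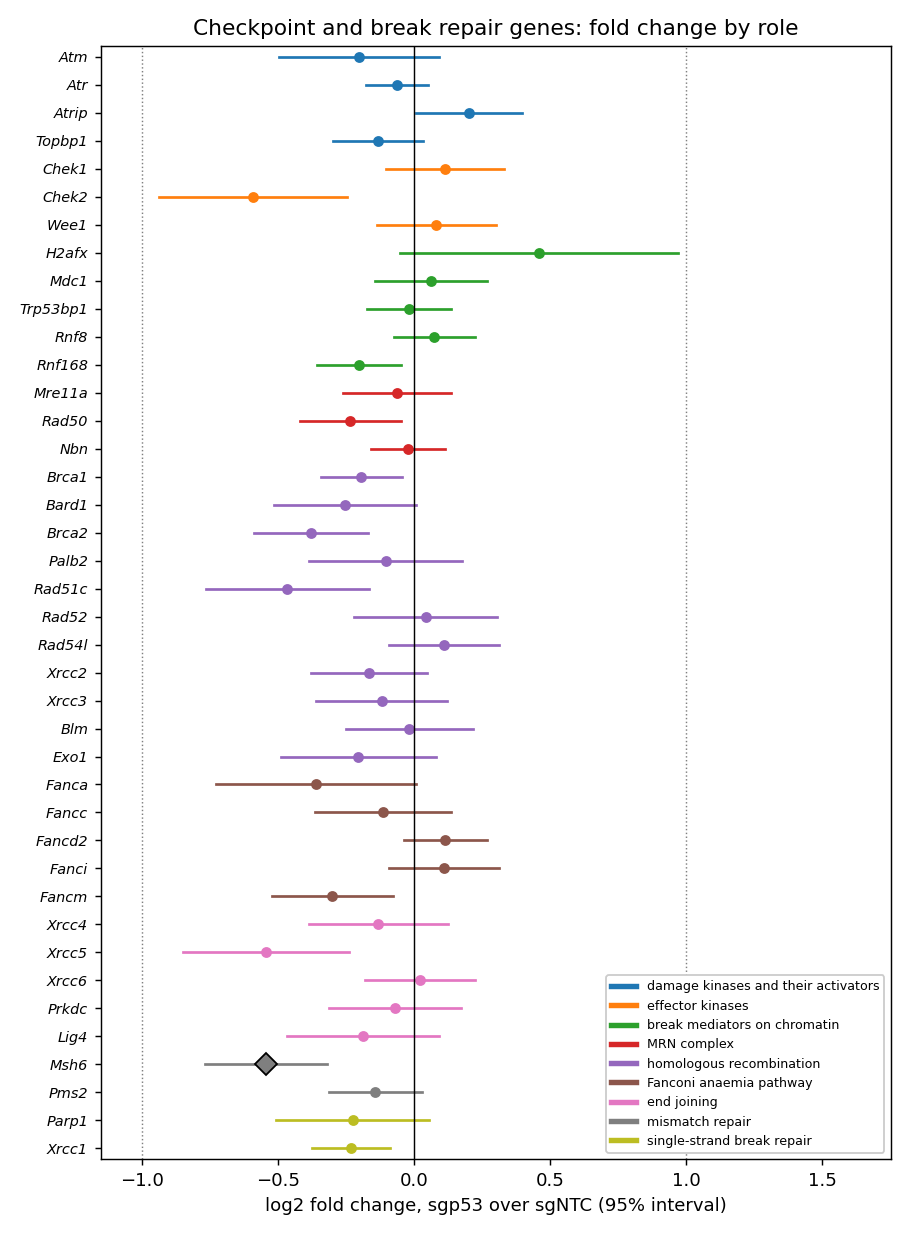
The log2 fold change of sgp53 over sgNTC (horizontal axis, point with 95% interval from edgeR) is plotted for the 40 genes, coloured by role; the diamond marks the called gene and dotted lines mark 2-fold changes. Msh6 is the 1 called gene at -0.54, and every interval lies inside the dotted lines.

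Mismatch repair held the called gene. MSH6 belongs to the complex that recognises base mismatches. Msh6 (chromosome 17, 87975050 to 87990892, GRCm38.p6) was at 214, 239 and 206 CPM in sgNTC lines 1, 2 and 3 and at 154, 164 and 135 CPM in sgp53. The groups did not overlap, and in each line the sgp53 library was the lower. From a mean of 219.9 ± 17.4 to one of 151 ± 14.7 CPM (SD over 3 libraries, as for all means below), the fitted log2FC was -0.54, with SE 0.09, a 95% interval of -0.77 to -0.32 and an edgeR adjusted p of 0.0284. The call held with the line as a block (edgeR adjusted p = 0.0335), a fit that called this 1 of the 40 genes lower, against 1.42% of all, and 0 higher, against 0.966%. It also held without sgp53 line 2 (edgeR adjusted p = 0.0493). It was lost without any 1 of the other 5 libraries, namely sgNTC line 1 (edgeR adjusted p = 0.0509), line 2 (0.0705) or line 3 (0.0814) and sgp53 line 1 (0.0923) or line 3 (0.0557), and without both libraries of any 1 line, while the log2FC stayed between -0.60 and -0.47 under all 14 alternatives. Pms2, an endonuclease subunit that acts after recognition, was at 35.99 ± 1.41 and 32.6 ± 1.59 CPM (log2FC -0.14, SE 0.07, edgeR adjusted p = 0.24). Msh6 shares 34 exonic bases with Fbxo11 on the opposite strand, which had a log2 fold change of 0.01 (edgeR adjusted p = 0.948).

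Promoters of the repair genes often held E2F-type motifs, which the choice of genes did not use. RefSeq windows (GRCm38.p6, from 250 bases before to 50 after the start) were found for 32 of the 40 genes, in 35 windows. Either TTCCCGC or TTGGCGC, on either strand, was in 18 of the 35 windows (51.4%), against 6.81% of all 32851 windows and 12.1% of the 12402 windows of tested genes. The NF-Y type motif CCAAT, counted the same way, was in 57.1%, against 37.4% of all windows and 37.8% of windows of tested genes. The CHR type motif TTTGAA was in 5.71% (2 of the 35 windows), against 17.9% and 11.5%. A p53 response element, with at most 1 mismatch and 13 bases between its parts, was in 0 of the 35 windows. Its share was 1.09% of all windows and 0.758% of windows of tested genes. The 0 says only that these letters are not in these windows. No 2 of these motifs overlap in the stretches below. The 18 genes with an E2F-type motif had a median log2 fold change of -0.17, from -0.59 to 0.12, and the 14 without one a median of -0.11, from -0.54 to 0.20. By sign, 12 of the 18 and 12 of the 14 were negative, and the difference between them was not tested. The following stretches show the called gene, a pair of motif-bearing genes with lower values in sgp53, a motif-bearing gene with a fitted log2FC of 0.06, and a gene with a lower value and no motif in its stretch. Capitals mark the E2F-type and NF-Y type motifs on either strand.
Msh6, chr17:87974930-87975074, plus strand: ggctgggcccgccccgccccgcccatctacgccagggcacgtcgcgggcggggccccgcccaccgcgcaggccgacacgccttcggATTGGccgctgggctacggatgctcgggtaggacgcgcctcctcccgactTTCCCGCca
Rad51c, chr11:87404945-87405064, minus strand: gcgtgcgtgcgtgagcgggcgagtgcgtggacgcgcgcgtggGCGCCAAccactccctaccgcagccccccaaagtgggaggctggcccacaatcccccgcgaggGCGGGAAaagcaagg
Rnf168, chr16:32277341-32277458, plus strand: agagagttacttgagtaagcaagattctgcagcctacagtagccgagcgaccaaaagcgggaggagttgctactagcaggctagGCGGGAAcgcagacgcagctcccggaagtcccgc
Mdc1, chr17:35841348-35841497, plus strand: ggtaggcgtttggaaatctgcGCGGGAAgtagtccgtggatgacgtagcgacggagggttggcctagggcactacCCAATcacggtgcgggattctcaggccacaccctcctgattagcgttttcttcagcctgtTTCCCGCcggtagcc
Xrcc5, chr1:72307271-72307420, plus strand: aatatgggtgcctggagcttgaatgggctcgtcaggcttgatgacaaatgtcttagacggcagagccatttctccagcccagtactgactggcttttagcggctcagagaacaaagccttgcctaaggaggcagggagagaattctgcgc
Mdc1, with differences of -0.10, 0.03 and 0.25 in log2 CPM in lines 1, 2 and 3, carries 2 copies of TTCCCGC, 1 on each strand. Xrcc5, at -0.54 in the fit, carries neither E2F-type motif. These 2 genes were picked after their values were seen, and the part of the motifs in the values was not tested. The Xrcc5 window does hold the NF-Y type motif CCAAT, on the opposite strand at position -169, before the stretch shown. A match is a stretch of letters and shows no binding.

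Among the checkpoint kinases, Chek2 had the lowest fitted fold change of all 40 genes and did not pass the test. Chek2 (chromosome 5, 110839800 to 110874140), the kinase that ATM switches on, was at 16.1, 19.5 and 20.3 CPM in sgNTC lines 1 to 3 and at 11.3, 14.2 and 11.6 CPM in sgp53. All 3 sgp53 values were below the lowest control. The fit gave a log2FC of -0.59 with SE 0.14 (edgeR adjusted p = 0.0613, DESeq2 adjusted p = 0.00668). Chek1, the kinase downstream of ATR, was at 34.2, 37.8 and 33.3 CPM in sgNTC and at 35.3, 41.5 and 37.2 CPM in sgp53, with overlapping groups (log2FC 0.12, 95% interval -0.10 to 0.33). Wee1, which blocks mitotic entry by phosphorylating CDK1, was at 46.2 ± 4.61 and 48.8 ± 2.98 CPM (log2FC 0.08).

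The upstream kinases differed little between the groups. Atr was at 76.9 to 78.6 CPM in sgNTC and at 73.9 to 75.2 CPM in sgp53, which gave the narrow 95% interval of -0.18 to 0.05. Atm was at 178, 215 and 176 CPM in sgNTC and at 145, 161 and 189 CPM in sgp53. Its sgp53 library of line 3 lay inside the control range (log2FC -0.20, SE 0.12, edgeR adjusted p = 0.319). Topbp1, which activates ATR, was at 431 ± 28.2 and 394 ± 19.9 CPM (log2FC -0.13). Atrip, the partner that brings ATR to single-stranded DNA, was the 1 gene of the 40 whose sgp53 libraries all lay above the controls. It was at 26.3, 27.6 and 27.3 CPM in sgNTC and at 33.9, 30.02 and 29.6 CPM in sgp53 (log2FC 0.20, SE 0.08, edgeR adjusted p = 0.16). Atrip shares 1147 exonic bases with Trex1 on the same strand, a gene at 9.84 CPM with a log2 fold change of 0.25 (edgeR adjusted p = 0.471), and reads of the shared bases cannot be told apart.

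Proteins that mark a break on chromatin gave no call. H2afx encodes the histone variant that ATM phosphorylates around breaks, and its RNA varied most between lines. It was at 315, 179.6 and 264 CPM in sgNTC lines 1, 2 and 3 and at 330.1, 405 and 307 CPM in sgp53. The lowest and the highest of the 6 values both came from line 2, where the log2 difference was 1.17, against 0.07 in line 1 and 0.22 in line 3. The fitted log2 fold change was 0.46 with an SE of 0.21 (edgeR adjusted p = 0.208). The ubiquitin ligase gene Rnf168, whose promoter stretch with 1 E2F-type motif is printed above, was at 71.03, 76.2 and 67.8 CPM in sgNTC and at 60.5, 64.5 and 61.8 CPM in sgp53 (log2FC -0.20, SE 0.06, edgeR adjusted p = 0.101). Rnf8, the ligase that acts before RNF168, was at 43.5 ± 0.66 and 45.8 ± 2.26 CPM. The scaffold Mdc1, which reads the phosphorylated histone, was at 115 ± 6.96 and 120.3 ± 11.1 CPM, and Trp53bp1, which steers breaks towards end joining, at 158 ± 10.4 and 156 ± 4.39 CPM. These 3 had log2 fold changes of 0.07, 0.06 and -0.02, each with a 95% interval within -0.17 to 0.27.

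The MRN complex senses broken ends and tethers them. Rad50, its long coiled-coil ATPase, was at 113, 133 and 124 CPM in sgNTC and at 98.8, 109 and 106 CPM in sgp53, without overlap (log2FC -0.23, SE 0.08, edgeR adjusted p = 0.112). The nuclease Mre11a was at 78.4 ± 7.27 and 75.0 ± 3.78 CPM and Nbn, which recruits ATM, at 70.2 ± 3.16 and 69.1 ± 1.33 CPM. Both of these overlapped between the groups, with log2 fold changes of -0.06 and -0.02.

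Homologous recombination had 11 genes, of which 9 had negative fold changes, against 51.5% of all tested genes, and 0 were called by edgeR. At an unadjusted p under 0.05, 3 of the 11 were lower, against 15.1% of all tested genes, and DESeq2 called 2 lower, against 9.04%. Brca2 (chromosome 5, 150522297 to 150570147), whose protein acts in strand exchange, was at 58.4, 67.8 and 59.4 CPM in sgNTC lines 1 to 3 and at 44.3, 51.3 and 47.1 CPM in sgp53. Each line showed nearly the same difference, between -0.40 and -0.33 on the log2 scale, and the fitted fold change was -0.38 (SE 0.09, edgeR adjusted p = 0.0555; DESeq2 adjusted p = 0.00608). Rad51c (chromosome 11, 87376645 to 87404954), a gene of recombination, was at 13.9, 17.1 and 14.97 CPM in sgNTC and at 11.8, 11.2 and 10.2 CPM in sgp53 (log2FC -0.46, SE 0.12, edgeR adjusted p = 0.0739; DESeq2 adjusted p = 0.0216). The groups of both genes stood apart.

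Brca1, whose protein directs end resection and recombination, was at 92.6, 98.3 and 94.6 CPM in sgNTC and at 84.0, 87.4 and 78.2 CPM in sgp53 (log2FC -0.19, SE 0.06, edgeR adjusted p = 0.102). Its obligate partner Bard1 was at 32.0 ± 1.76 and 26.8 ± 3.38 CPM, also without overlap (log2FC -0.25, SE 0.11). Palb2, the bridge between BRCA1 and BRCA2, was at 21.8 ± 2.37 and 20.2 ± 1.602 CPM. Its groups overlapped, as did those of the other 6 genes, the recombination genes Xrcc2 (log2FC -0.17) and Xrcc3 (-0.12), the helicase Blm (-0.02), the nuclease Exo1 (-0.20), the annealing protein Rad52 (0.04) and the translocase Rad54l (0.11).

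The Fanconi pathway was split by sign. Fancm, the helicase that recognises crosslinked DNA, was at 56.8, 65.9 and 57.4 CPM in sgNTC and at 53.4, 47.8 and 45.2 CPM in sgp53, below every control (log2FC -0.30, SE 0.09, edgeR adjusted p = 0.0954). Fanca, of the core ubiquitin ligase complex, was at 63.1, 95.9 and 81.6 CPM in sgNTC and at 65.3, 64.6 and 57.3 CPM in sgp53. Its control value in line 1 lay among the sgp53 values, and the SE was correspondingly wide (log2FC -0.36, SE 0.15). Fancc, of the same core complex, was at 13.8 ± 0.714 and 12.7 ± 0.745 CPM. The 2 proteins that the core complex ubiquitinates had fold changes of nearly equal size: Fancd2 was at 72.8 ± 4.22 and 78.8 ± 2.63 CPM (log2FC 0.11) and Fanci at 45.5 ± 3.75 and 49.1 ± 2.84 CPM (0.11). Both groups overlapped in each.

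In end joining, Xrcc5 had the lowest fitted value, and none of the 5 genes passed the edgeR test; Xrcc5 was lower at an unadjusted p under 0.05 and was called by DESeq2. Xrcc5 (chromosome 1, 72307417 to 72394953), which encodes the Ku80 subunit that caps broken ends and has no E2F-type motif in its window, was at 73.0, 82.3 and 91.5 CPM in sgNTC lines 1 to 3 and at 61.5, 60.3 and 47.6 CPM in sgp53. The means were 82.2 ± 9.24 and 56.4 ± 7.71 CPM (log2FC -0.54, SE 0.13, edgeR adjusted p = 0.0571; DESeq2 adjusted p = 0.00242). The within-line differences were uneven, at -0.25, -0.45 and -0.94 in lines 1, 2 and 3, and the fold change was -0.35 without both libraries of line 3. Xrcc6, which encodes the Ku70 subunit, was at 113 ± 12.1 and 115 ± 1.35 CPM (log2FC 0.02, 95% interval -0.18 to 0.22). Prkdc, the catalytic kinase that Ku recruits, was at 31.1 ± 1.26 and 29.6 ± 3.33 CPM. The ligase Lig4 was at 23.02 ± 2.55 and 20.2 ± 1.64 CPM and its stabilising partner Xrcc4 at 13.2 ± 0.536 and 12.03 ± 0.809 CPM, with log2FC of -0.19 and -0.13.

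Single-strand break repair was represented by its sensor and its scaffold. Xrcc1 (chromosome 7, 24546699 to 24573438), the scaffold, was at 110.1, 110.1 and 122 CPM in sgNTC and at 97.8, 98.1 and 95.3 CPM in sgp53. The sgp53 values were tightly grouped below the controls (log2FC -0.23, SE 0.06, edgeR adjusted p = 0.0682; DESeq2 adjusted p = 0.0168). Parp1, the sensor that marks nicks with ADP-ribose, was at 322, 425 and 371 CPM in sgNTC and at 343, 327 and 287 CPM in sgp53. Its groups overlapped, through line 1 (log2FC -0.22, SE 0.12, edgeR adjusted p = 0.256).

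**Figure D2:**
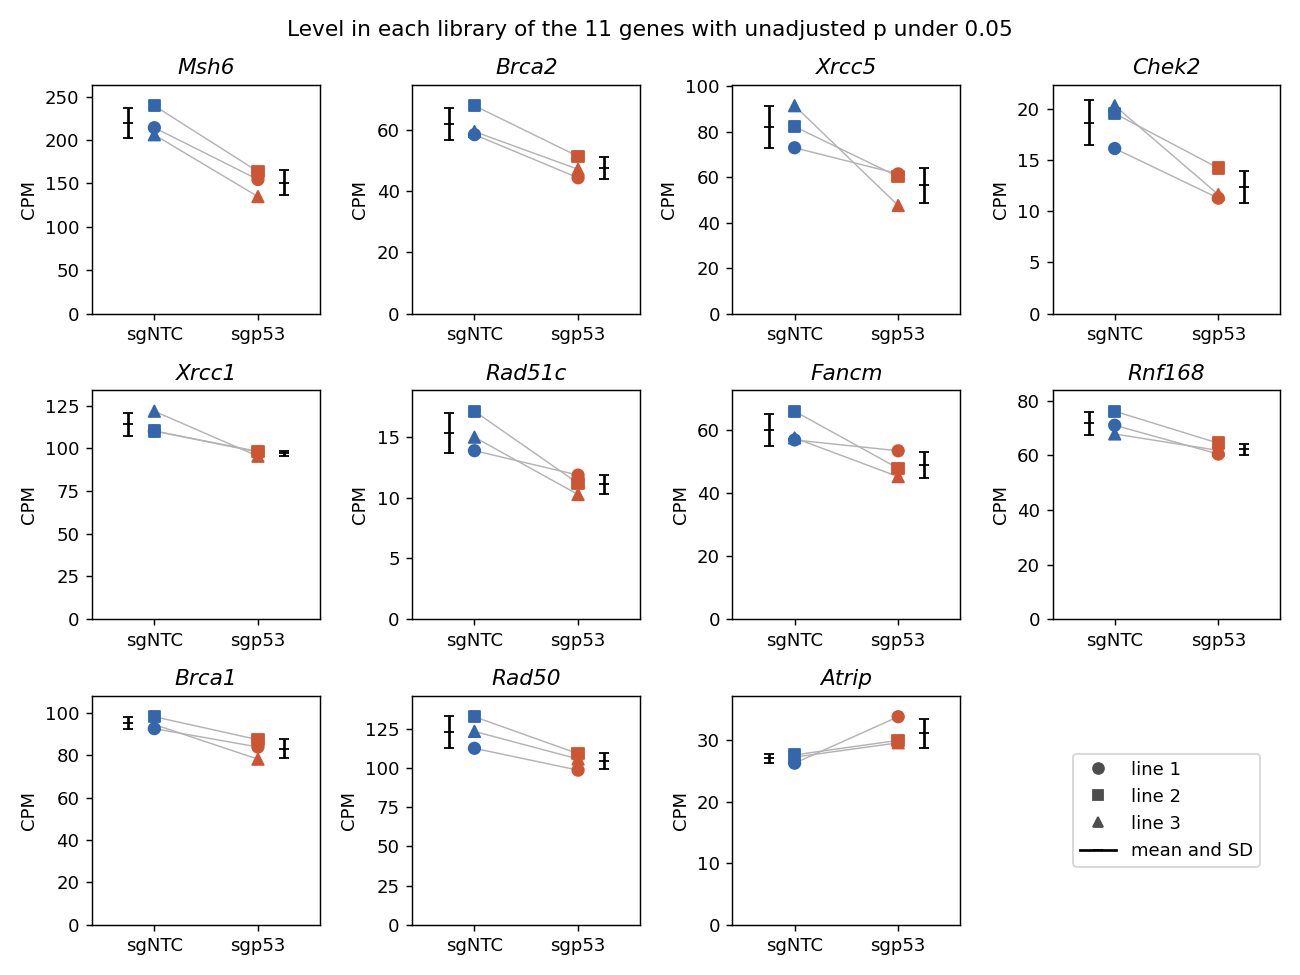
CPM (vertical axis, from 0) in each library is plotted for the 11 genes with an unadjusted edgeR p under 0.05; grey lines join the libraries of a line, and bars give mean and SD. In 10 panels every sgp53 value lies below every sgNTC value, and in the Atrip panel every one lies above. The choice of genes by p in these same libraries favours such separation. Only Msh6 passed the adjusted test.

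The lines did not all move together. Within-line differences had the same sign in all 3 lines for 25 of the 40 genes, negative for 19 and positive for 6. In lines 1, 2 and 3, 25, 30 and 27 of the 40 genes were lower in sgp53, with median differences of -0.06, -0.14 and -0.06. Over all tested genes the medians were -0.012, 0.0008 and -0.011. The counts by sign within lines were not taken over all genes. Apart from H2afx, the widest ranges between lines were those of Xrcc5 and Fanca. Fanca differed by 0.05, -0.57 and -0.51 in lines 1, 2 and 3, so that the lines with a shared number in the descriptions were the closer pair. Exo1 and Parp1 showed a like order, at 0.12, -0.36 and -0.35 for Exo1 and 0.09, -0.38 and -0.37 for Parp1. Other genes differed in this: lines 1 and 3 were closest in H2afx (0.07, 1.17 and 0.22). In Xrcc5 (-0.25, -0.45 and -0.94) lines 1 and 2 were closest. Whether differences between lines go with the shared number was not tested. Atr and Fancc were the most even, with ranges of 0.01 and 0.02 between lines.

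**Figure D3:**
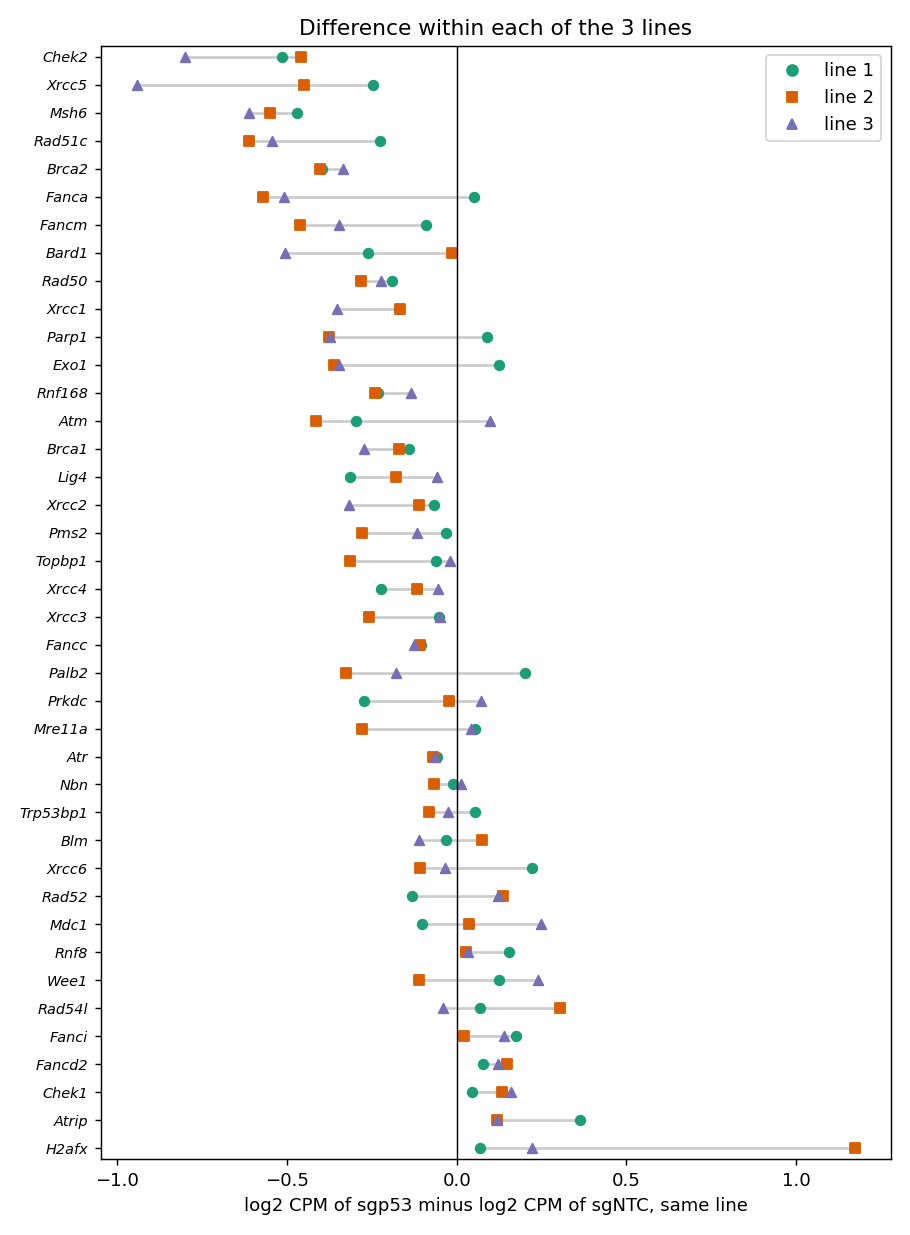
The difference in log2 CPM between the sgp53 and the sgNTC library of the same line (horizontal axis) is plotted for the 40 genes, ordered by fold change, with 1 symbol per line and a grey bar over their range. The Msh6 and Brca2 symbols lie close together below 0, whereas H2afx ranges from 0.07 to 1.17.

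Many of these proteins work as pairs, so the ratio between the RNAs of 11 pairs was taken in each library, which no library scaling can alter. Ratios are of CPM per kilobase of the longest transcript in GENCODE M21. The pairs were chosen after the values of their genes were seen. The ratio of Xrcc5 to Xrcc6 was 0.942, 0.860 and 1.01 in sgNTC lines 1 to 3 and 0.68, 0.679 and 0.537 in sgp53. The size of a ratio depends on the transcript lengths used, whereas its fold change between the groups does not. The ratio of Chek2 to Chek1 was 0.888 ± 0.118 and 0.541 ± 0.0259, and that of Atrip to Atr 1.09 ± 0.0179 and 1.32 ± 0.11. The groups also stood apart for Rad50 over Mre11a and for Rad51c over Xrcc3. These 5 of 11 pairs had an exact two-sided permutation p of 0.1, the smallest that 3 libraries against 3 allow. Benjamini-Hochberg adjustment over the 11 pairs gave 0.22. The permutation moved the libraries freely and did not keep the pairing by line. In all 5 the first gene by itself had an unadjusted edgeR p under 0.05, so these ratios are no separate support. The other 6 ratios overlapped between the groups, among them Fanci over Fancd2 (0.745 ± 0.101 and 0.740 ± 0.062) and Lig4 over Xrcc4 (0.537 ± 0.0721 and 0.518 ± 0.0663).

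**Figure D4:**
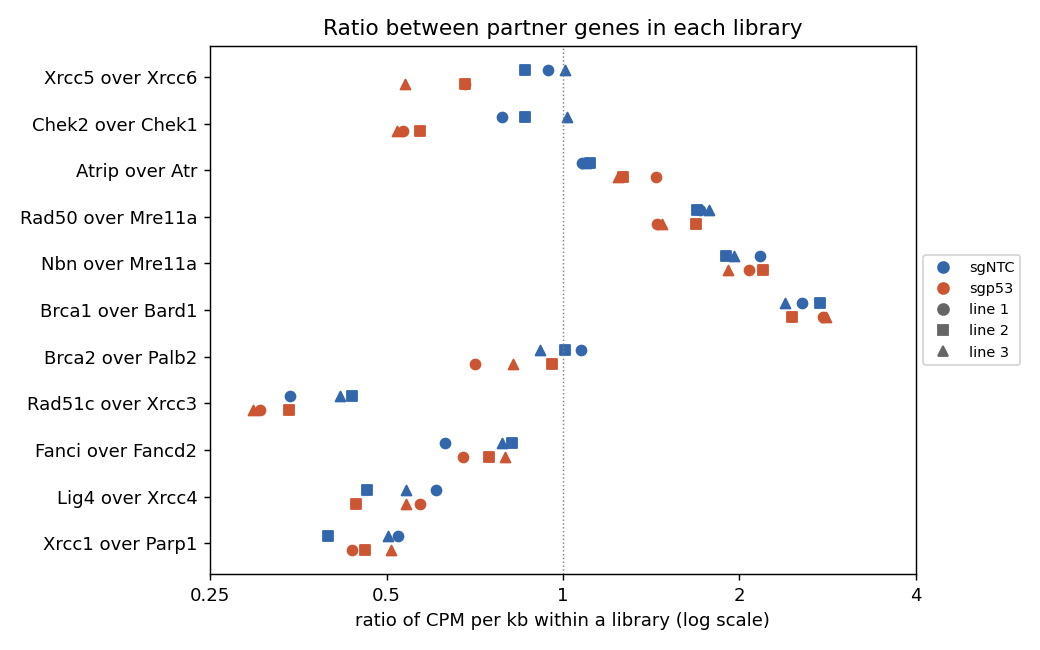
The ratio of CPM per kb of the first gene to the second (horizontal log axis) is plotted in each library for 11 pairs, sgNTC in blue and sgp53 in orange, with 1 symbol per line. Blue and orange symbols are separate in 5 pairs, such as Xrcc5 over Xrcc6, and overlap in the other 6.

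Per kilobase of transcript, the levels of the 40 genes spanned a wide range that was much alike in both groups. H2afx led at 183 CPM per kb in sgNTC and 251 in sgp53, followed by Parp1 (96.3 and 82.4), Topbp1 (82.5 and 75.3) and Msh6 (51.7 and 35.5). Below these stood Xrcc1 at 45.1 and 38.4 CPM per kb and Xrcc6 at 34.4 and 34.9. Of the upstream kinases, Atm (19.3 and 16.8) ranked 10 of 40 and Atr (9.62 and 9.20) ranked 25. At the bottom were Lig4 (4.58 and 4.02), Fancc (4.36 and 4.03), Rad51c (3.88 and 2.81) and Prkdc (2.46 and 2.34).

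Of 95 other genes of the same pathways, 94 had a row and were tested. EdgeR called 2 lower and 0 higher, against 3.69% and 2.76% of all tested genes. At an unadjusted p under 0.05, 18 were lower and 6 higher, against 15.1% and 13.9%, and DESeq2 called 7 lower and Swi5 higher, against 9.04% and 8.91%. Dna2, a nuclease and helicase of end resection, stood at 70.2 ± 8.96 CPM in sgNTC and fell to 40.5 ± 6.57 CPM in sgp53 (log2FC -0.79, SE 0.15, edgeR adjusted p = 0.0325). Rpa1, the large subunit of the protein that coats single-stranded DNA, stood at 314 ± 33.0 CPM and fell to 244 ± 3.74 CPM (log2FC -0.37, SE 0.08, edgeR adjusted p = 0.0492; 0.0924 with the line as a block). Their median log2 fold change was -0.06, and 59 of the 94 (62.8%) were negative, against 51.5% of all tested genes. The gene Clspn was at 157 ± 11.1 and 143 ± 6.01 CPM (edgeR adjusted p = 0.227). Both calls depended on single libraries: leaving out sgNTC line 2 or 3, or any sgp53 library, left 0 of the 94 called lower.

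Cell cycle genes moved in both directions beside the repair genes. Of 20, all tested, edgeR called 2 lower and 3 higher, against 3.69% and 2.76% of all tested genes. The E-type cyclins Ccne1 (log2FC -0.82) and Ccne2 (-0.60), which drive entry into S phase, fell. The cyclin gene Ccna2 (0.32) and the mitotic genes Bub1b (0.42) and Cdc20 (0.38) rose. The median of the 20 was -0.18. The helicase genes Mcm2 to Mcm7 had log2FC of -0.53 to -0.10, and none passed the edgeR test. Mcm2, Mcm3, Mcm4, Mcm6 and Mcm7 were lower at an unadjusted p under 0.05, and DESeq2 called Mcm3, Mcm4 and Mcm6. Of all 20, 10 were lower and 4 higher at an unadjusted p under 0.05, against 15.1% and 13.9% of all tested genes. DESeq2 called 8 lower and 4 higher, against 9.04% and 8.91% of the genes tested. Mki67, the proliferation marker, was at 591 ± 28.2 and 615 ± 59.9 CPM. With the line as a block, only Ccne2 was called lower and only Bub1b higher. All 3 rises were lost without any 1 library, both falls without sgNTC line 3, and 1 of the falls without any 1 sgp53 library. The part of these levels in the differences of the repair genes was not tested.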

How the data were processed

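The values deposited by the authors are raw counts, 1 row per gene symbol, for 6 libraries, 3 of sgNTC and 3 of sgp53, with 0 columns of unknown samples. Listed in the submitters' processing notes, with no roles, are CASAVA 1.8, STAR, DESeq2 and mm10. How reads were counted, on which gene models and with which strand rule, is not given in the sources used here. Reads of overlapping genes therefore cannot be told apart, and 20 of the 40 genes share exonic bases with another GENCODE M21 gene.

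From the counts, sgp53 was compared with sgNTC in R 4.3.3 with edgeR 4.0.16 and its quasi-likelihood F-test (TMM, filterByExpr, 13044 genes, 4 residual degrees of freedom), with Benjamini-Hochberg adjustment over all of them and a threshold of 0.05. Each SE is |log2FC| over the root of F. Within-line differences used log2 CPM with a prior count of 2. DESeq2 1.42.0 and limma-voom (limma 3.58.1), other size factors, no filter, a line block and left-out libraries were alternatives. The scripts were tested on simulated data. No libraries of a group agreed within sampling noise (chi-square per degree of freedom 21.8 to 58.0).

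The line numbers pair the libraries, since both libraries of a number come from the same cell line. Deviations from the group means correlated at 0.0893, 0.00177 and -0.0272 in lines 1, 2 and 3. Only the sgp53 library of line 1 correlated best with the control of its own number. The genes, lists and tests were chosen with earlier results of these data known. The rule for naming was every member, by role, with each sample's value for called genes and those with an unadjusted p under 0.05, every called gene of the other repair list, the 3 members with the widest range between lines, and Trp53, Cdkn1a and Mdm2 as checks (Mdm2 fell by 2.73 in log2FC); other genes were named after their values were seen, and some genes are not reported here. Coordinates and promoters are from RefSeq for GRCm38.p6 (mm10).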

Additional observations from a re-analysis of the deposited data

How the results depend on the processing

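The count of repair and checkpoint genes called lower was 1 with the line as a replicate block, with other size factors, without the filter and with limma-voom (Msh6 each time), 6 with DESeq2, 0 without both libraries of line 1, 2 or 3, and 0 to 1 with 1 library left out. None was called higher under any of the 14 alternatives. The median log2 fold change was -0.0703 without line 2. Of the other repair genes, 1 was called lower with the block, other size factors, no filter or limma-voom, 7 with DESeq2 (and 1 higher), 0 without any 1 line, and 0 to 2 with 1 library left out. Cell cycle genes called lower numbered 1 with the block, 8 with DESeq2, 0 without any 1 line and 0 to 4 with 1 library left out; those called higher numbered 1 with the block, 4 with DESeq2, 2 with limma-voom, and 0 without any 1 line or library. Over all genes, against 481 lower and 360 higher, the block gave 185 and 126, DESeq2 1191 and 1188, and limma-voom 414 and 284. Leaving out line 1, 2 or 3 gave 36 and 11, 52 and 12, and 15 and 4. With 1 library left out the ranges were 102 to 449 lower and 24 to 251 higher. The Trp53 call was lost without line 1 (log2 fold change -1.52, edgeR adjusted p = 0.0964), line 2 (-1.31, 0.112) and line 3 (-1.76, 0.0731), and with 1 library left out its value ranged from -1.78 to -1.41, with the call lost without sgNTC line 3, sgp53 line 1 or sgp53 line 2 (edgeR adjusted p = 0.0721, 0.0679 and 0.0507). Fits without a line have fewer samples. The line block changed no call of a checkpoint or repair gene among the 40. Of the 11 genes with an unadjusted p under 0.05, none changed sign under any alternative, and Chek2, Brca2, Rad51c, Xrcc5 and Xrcc1 were called by DESeq2 alone.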
